A study of Rattus norvegicus with 16 samples.

Results

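The proteasome is described here through the 49 probe sets, for 27 genes, whose single gene symbol in the annotation of the array names a proteasome subunit or a dedicated proteasome factor (symbols that begin with Psma, Psmb, Psmc, Psmd, Psme, Psmf or Psmg and a digit). They are 49 of the 8740 probe sets measured, and the rule reads the symbols alone, though it was set with earlier results of these data known. Of the 49, 27 probe sets stand for 13 genes of the barrel-shaped core, 17 for 11 genes of the regulatory cap, 4 for the PA28 activator genes Psme1 and Psme2, and 1 for Psme4, the PA200 activator. No probe set carried a Psmf or Psmg symbol alone. A further 5 probe sets with several symbols, among them those of Psma3, Psmb6 and Psme3, were left out by the rule, so the catalytic subunit Psmb6 and the third PA28 gene have no value, and Psmb7 and Psmb10 are not among the members either.

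The proteasome degrades proteins that carry ubiquitin chains. The core holds an outer pair of alpha rings that gate the barrel and an inner pair of beta rings that carry the cutting sites, and the cap recognises ubiquitin, unfolds the substrate with its ATPases and feeds it into the core. Interferon-induced beta subunits replace the constitutive catalytic ones in the immunoproteasome, and PA28 is a cap-independent activator that interferon also induces. Proteasome subunit genes are among the genes known to respond to the transcription factors NRF1 and NRF2, and dithiolethiones are inducers of NRF2 target genes in liver. The comparisons below ask which proteasome genes moved with each dithiolethione, and whether the core, the cap and PA28 moved alike.

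The samples were livers of male Fischer F344 rats, 6 weeks old on arrival, gavaged with 3 doses over 5 days and killed 24 h after the last one, with 4 arrays from separate animals in each of 4 groups. The control animals received saturated sucrose, the vehicle (their labels call them untreated), and the others 0.3 mmol/kg of D3T (3H-1,2-dithiole-3-thione, the bare ring), of oltipraz (OLT, with a methyl and a pyrazinyl group on the ring) or of TBD (with a tert-butyl group). All values are log2 expression values made with GCRMA, differences are log2 differences between group means with the SE of a limma fit over all 16 arrays, and a probe set was called where the Benjamini-Hochberg adjusted p over all 5323 tested probe sets was under 0.05. A probe set was tested if it exceeded the 40th percentile of its array on at least 4 arrays. Of the 49 members 44 were tested, all of them above that percentile on all 16 arrays, and the other 5, one probe set each of Psma1, Psma5, Psma6, Psmd1 and Psme1, lay between 1.49 and 3.14 on every array and were never above it. Each of the 27 genes kept at least 1 tested probe set. Array medians ran from 3.27 to 3.58. OLT replicate 1 and TBD replicate 4 stood apart from the other arrays on the second principal component, and results that rest on them are given without them. Liver is a mixture of cells, so fewer cells of a type and less RNA per cell cannot be told apart. The arrays of a group come from separate animals, so p-values measure the spread between animals together with that of the arrays. Of 12 listed hepatocyte markers 11 were measured and tested, with 3 called higher and 2 lower with D3T and none with OLT or TBD. Of all tested probe sets 6.18% were higher and 12.2% lower with D3T, 3.38% and 7.89% with OLT and 3.55% and 9.47% with TBD. The summed linear level of these markers was 144670 to 156516 in vehicle, 161754 to 174430 with D3T, 135056 to 171767 with OLT and 154451 to 177111 with TBD.

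Upstream sequences of Psmb5, Psmb2, Psmd1, Psmd4 and Psmb9 are shown because a short element that NRF1 and NRF2 bind occurs in some of them. Those of Psmb4, Psmd11 and Psme1, which also had a higher call, are not shown. The windows run from 250 bases before to 50 bases after the annotated gene start, are 300 bases long, are printed 5′ to 3′ along the gene's strand, and come from RefSeq on build GRCr8; 26 of the 27 member genes matched an entry, and Psma7 did not. The letters TGACNNNGC, the core of the antioxidant response element to which NRF1 and NRF2 bind, were searched on both strands. They occurred in the windows of Psmb5, Psmb2, Psmd1 and Psme4, 15.4% of the 26 member windows, against 12.1% of all 33469 windows of that length. The first 3 of these are 3 of the 7 genes with at least 1 probe set called higher. The windows of the others with a higher call, Psmb4, Psmd4, Psmd11 and Psme1, held no match. In the sequences of Psmb5, Psmb2 and Psmd1 capitals mark the matches. They begin at base -60 in Psmb5, at base -68 in Psmb2 and at bases -165 and 22 in Psmd1, counted from the gene start as base 0.
Psmb5, chr15:32047330-32047629, minus strand: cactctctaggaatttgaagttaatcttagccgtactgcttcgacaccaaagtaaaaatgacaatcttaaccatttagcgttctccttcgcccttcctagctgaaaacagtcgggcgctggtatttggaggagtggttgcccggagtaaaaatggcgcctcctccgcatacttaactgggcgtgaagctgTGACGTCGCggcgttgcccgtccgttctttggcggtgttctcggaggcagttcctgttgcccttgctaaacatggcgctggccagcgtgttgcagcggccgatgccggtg
Psmb2, chr5:144254808-144255107, plus strand: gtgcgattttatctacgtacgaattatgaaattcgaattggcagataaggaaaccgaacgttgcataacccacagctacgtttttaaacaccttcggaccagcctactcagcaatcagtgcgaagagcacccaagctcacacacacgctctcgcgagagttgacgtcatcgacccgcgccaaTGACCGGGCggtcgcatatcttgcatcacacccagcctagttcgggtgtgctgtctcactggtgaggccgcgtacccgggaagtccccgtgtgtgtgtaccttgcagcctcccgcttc
Psmd1, chr9:94157721-94158020, plus strand: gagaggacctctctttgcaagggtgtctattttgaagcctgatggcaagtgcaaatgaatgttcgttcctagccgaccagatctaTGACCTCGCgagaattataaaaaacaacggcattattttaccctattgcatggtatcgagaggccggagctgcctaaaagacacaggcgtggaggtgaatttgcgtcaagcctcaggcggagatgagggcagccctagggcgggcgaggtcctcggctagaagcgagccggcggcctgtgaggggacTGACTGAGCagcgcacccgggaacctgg
Psmd4, called higher on 2 probe sets with each compound, held no TGACNNNGC in its window but 2 CCAAT boxes, one on each strand, at bases -9 and 10 (capitals). CCAAT stood in 14 of the 26 member windows (53.8%) and in 37.5% of all windows. Of the 7 genes with a higher call, 2 (Psmb2 and Psmd4) held it, as did Psmb9, one of the 2 genes with a lower call. In the Psmb2 window a CCAAT that begins at base -72 shares 1 base with the TGACNNNGC match at base -68.
Psmd4, chr2:185297152-185297451, minus strand: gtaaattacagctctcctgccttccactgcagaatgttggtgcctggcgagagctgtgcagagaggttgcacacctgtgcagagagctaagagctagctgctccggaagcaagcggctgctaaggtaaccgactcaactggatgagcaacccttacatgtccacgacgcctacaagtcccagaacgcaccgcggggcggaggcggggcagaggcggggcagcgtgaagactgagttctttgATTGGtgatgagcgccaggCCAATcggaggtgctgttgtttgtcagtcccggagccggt
Psmb9, the immunoproteasome gene with lower calls on 1 of its 2 probe sets, lies head to head with the peptide transporter gene Tap1. Capitals mark the 44 bases that the Psmb9 window shares with that of Tap1. The core of the interferon-stimulated response element, a pair of GAAA repeats that 2 bases separate, was found in 4 member windows (Psma4, Psmb3, Psmb8 and Psme2, 15.4%, against 3.92% of all windows) and not in this one. A match is a match of letters and not a measured binding site.
Psmb9, chr20:4668750-4669049, plus strand: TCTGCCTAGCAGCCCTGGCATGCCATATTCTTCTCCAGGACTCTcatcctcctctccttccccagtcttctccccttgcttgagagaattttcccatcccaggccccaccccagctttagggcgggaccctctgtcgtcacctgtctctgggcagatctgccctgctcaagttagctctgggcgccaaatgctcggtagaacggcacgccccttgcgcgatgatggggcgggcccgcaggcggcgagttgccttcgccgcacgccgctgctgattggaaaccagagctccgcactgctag

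Against vehicle, the members did not move as a block. Some probe sets of the beta subunits Psmb2, Psmb4 and Psmb5 rose with at least 1 compound. So did some of the cap subunits Psmd1, Psmd4 and Psmd11, and the rises were 1.27-fold to 2.96-fold. No probe set of the alpha subunits (10 tested) or cap ATPases (6 tested) was called. In sets of that size few calls would fall at the shares of all tested probe sets called, given below. One of the 2 Psmb9 probe sets fell with each compound and the other was not called, and the 2 tested Psme1 probe sets were called in opposite directions with D3T. With D3T 5 of 44 member probe sets were called higher and 2 lower, with OLT 6 and 2, and with TBD 4 and 1. Those were 15.9%, 18.2% and 11.4% of the members, against 18.4%, 11.3% and 13% of all tested probe sets. The share of members called was thus close to the background with D3T and TBD and above it with OLT. The OLT excess depended on the setting. The OLT shares were 29.5% of members against 12% of all after a renewed quantile normalization, and 6.82% against 6.78% after centring of the array medians. Without OLT replicate 1 and TBD replicate 4 they were 9.09% against 13.2%. In the main fit the split by direction differed more from the background than the share called. Higher calls made up 11.4% of members with D3T, 13.6% with OLT and 9.09% with TBD, against 6.18%, 3.38% and 3.55% of all probe sets, while lower calls made up 4.55%, 4.55% and 2.27% of members, against 12.2%, 7.89% and 9.47%. Over the 3 compounds 10 probe sets of 8 genes were called at least once, and 19 genes had no call. Groups did not overlap on 12, 6 and 5 members (27.3%, 13.6% and 11.4%, against 24.9%, 14.7% and 14.3% of all probe sets). The 4 probe sets called with all 3 compounds were 1 of Psmb5, 2 of Psmd4 and 1 of Psmb9. The shares of all probe sets called at least once, or with all 3 compounds, were not computed. The 3 comparisons share the vehicle arrays, so their calls are not independent.

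The counts depended on scaling. After a renewed quantile normalization 14 members were called higher and 2 lower with D3T, 11 and 2 with OLT and 11 and 0 with TBD, and after centring of the array medians 3 and 2, 2 and 1, and 2 and 1. Of all tested probe sets, 12.6% were then higher and 11.3% lower with D3T, 5.6% and 6.44% with OLT and 5.86% and 7.2% with TBD after quantile normalization, and 9.64% and 12.4%, 2.84% and 3.95%, and 2.69% and 5.32% after centring. The members' shares in the same order were 31.8% and 4.55%, 25% and 4.55%, and 25% and 0%, and 6.82% and 4.55%, 4.55% and 2.27%, and 4.55% and 2.27%. After centring, the share of members higher with D3T was thus below that of all probe sets. With both outlying arrays (OLT replicate 1, TBD replicate 4) removed, the counts were 4 and 3 with D3T, 3 and 1 with OLT and 6 and 2 with TBD. They were 9.09% and 6.82%, 6.82% and 2.27%, and 13.6% and 4.55% of members. The shares of all probe sets were 7.51% and 13.2%, 3.66% and 9.49%, and 4.87% and 11.3%.

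By class, the core had 2 higher and 1 lower call among 24 probe sets with each compound, the cap 2, 4 and 2 higher and 0 lower among 16 with D3T, OLT and TBD, and PA28 1 higher and 1 lower, 0 and 1, and 0 and 0 among 3. The called shares were 12.5% of the core with each compound, 12.5%, 25% and 12.5% of the cap and 66.7%, 33.3% and 0% of PA28. Of all tested probe sets 18.4%, 11.3% and 13% were called, so the core was near or below the background. The median log2 differences were small in every class. They were 0.04, 0.16 and 0.05 in the core with D3T, OLT and TBD, 0.02, 0.07 and -0.02 in the cap and -0.23, 0.02 and 0.02 in PA28, beside medians over all tested probe sets of 0.04, -0.03 and -0.02. The finer classes lay further apart. Constitutive core beta subunits, 11 probe sets of 5 genes, had medians of 0.28, 0.34 and 0.33, with 10, 11 and 9 probe sets above 0. Core alpha subunits, 10 probe sets of 6 genes, had medians of -0.20, 0.10 and 0.02, with 2, 7 and 6 above 0. The 3 immunoproteasome probe sets of 2 genes, 2 of them of Psmb9, had medians of -0.46, -0.56 and -0.22, with 0 above 0. In the cap, the 9 non-ATPase probe sets of 5 genes had medians of 0.21, 0.50 and 0.36 and the 6 ATPase probe sets of 5 genes -0.21, -0.01 and -0.10. Of all tested probe sets 58.9%, 37.5% and 41.7% lay above 0. Probe sets of 1 gene share their target, so these counts are descriptions and the classes were not tested against each other.

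**Figure D1:**
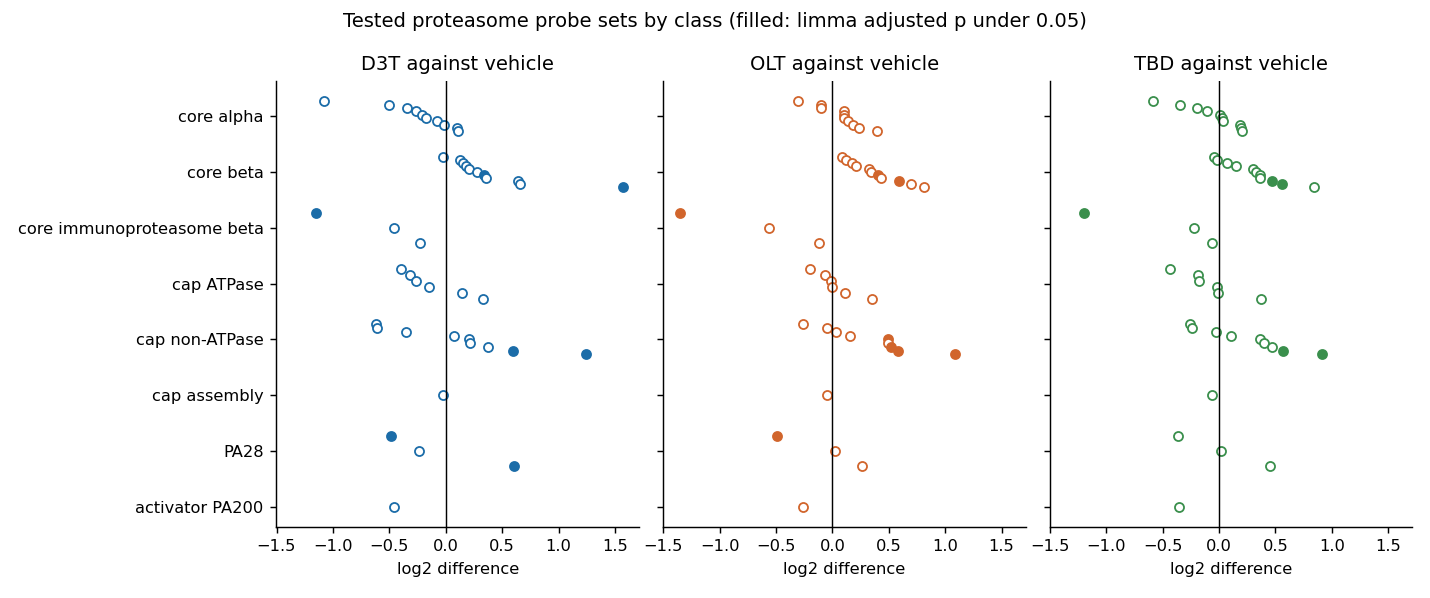
Log2 difference against vehicle (x axis) of the 44 tested proteasome probe sets, 1 point each, by class (y axis) and compound (panels); filled points passed a limma adjusted p under 0.05. Core beta points lie mostly right of 0 and immunoproteasome points left of it, and no alpha (10) or ATPase (6) point is filled.

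Psmb5 is the catalytic beta subunit with chymotrypsin-like activity and the target of the drug bortezomib. Its probe set D45247_g_at read 10.39, 10.35, 10.24 and 10.26 on vehicle replicates 1 to 4, 10.81, 10.41, 10.63 and 10.75 with D3T, 10.93, 10.66, 11.06 and 10.95 with OLT and 10.89, 10.72, 10.95 and 10.89 with TBD. All arrays of each compound group lay above all vehicle arrays. It rose with D3T (log2 difference 0.34 ± 0.10, adjusted p = 0.0312, limma), with OLT (0.59 ± 0.10, adjusted p = 0.00209) and with TBD (0.56 ± 0.10, adjusted p = 0.00252), that is 1.27-fold, 1.5-fold and 1.47-fold. The D3T call did not survive the removal of vehicle replicate 2, 3 or 4 or D3T replicate 1, 3 or 4 (0.29 to 0.42 without single arrays, adjusted p up to 0.104). Centring of the arrays ended it too (0.29, adjusted p = 0.113), as did a variance prior that follows intensity (adjusted p = 0.0683).

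The 2 other tested probe sets of Psmb5 were not called with any compound. D45247_at, from the same source sequence, read 9.42, 9.75, 9.50 and 10.30 in vehicle, 10.18, 9.85, 9.81 and 9.64 with D3T, 10.27, 9.91, 9.67 and 10.43 with OLT and 9.85, 9.84, 9.96 and 9.90 with TBD. The groups overlapped, and its differences were 0.13, 0.33 and 0.15. The probe set rc_AA891226_s_at read 9.17, 9.40, 9.38 and 9.61 in vehicle, 9.80, 9.62, 9.50 and 9.73 with D3T, 10.08, 9.14, 9.24 and 9.77 with OLT and 9.14, 9.06, 9.62 and 9.64 with TBD, again with overlapping groups and with differences of 0.28, 0.17 and -0.02. Over the mean of the 3 probe sets Psmb5 differed by 0.25 (adjusted p = 0.224), 0.36 (adjusted p = 0.0947) and 0.23 (adjusted p = 0.335) with D3T, OLT and TBD, and no call was left.

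Psmb4, a beta subunit without a cutting site, gave the largest rise of any member. Its probe set L17127_at read 9.04, 8.86, 9.24 and 8.83 in vehicle, 10.75, 10.997, 10.01 and 10.49 with D3T, 8.42, 10.68, 10.15 and 9.98 with OLT and 9.79, 10.85, 9.85 and 8.84 with TBD. All D3T arrays lay above all vehicle arrays, while OLT replicate 1 and TBD replicate 4 lay within or below the vehicle range. The D3T difference was 1.57 ± 0.44 (2.96-fold, adjusted p = 0.0228), and it was lost without vehicle replicate 2 or 4 or D3T replicate 1 or 2 (1.42 to 1.75 without single arrays, adjusted p up to 0.0625). With OLT and TBD the differences were 0.81 (95% interval -0.13 to 1.76) and 0.84 (-0.10 to 1.78) and did not pass. Without OLT replicate 1 and TBD replicate 4 they were 1.28 (adjusted p = 0.0102) and 1.17 (adjusted p = 0.0123), and both passed. The other probe sets of Psmb4 had smaller differences of the same sign, 0.64, 0.09 and 0.30 for L17127_g_at and 0.36, 0.34 and 0.36 for rc_AI172162_at, and none of these passed.

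Psmb2, another beta subunit without a cutting site, was called with the substituted compounds. Its probe set D21799_g_at read 9.19, 9.14, 9.37 and 9.19 in vehicle, 9.46, 9.24, 9.29 and 9.50 with D3T, 9.73, 9.54, 9.37 and 9.88 with OLT and 9.58, 9.67, 9.88 and 9.64 with TBD. All TBD arrays exceeded all vehicle arrays, and OLT replicate 3 equalled the highest vehicle array to 2 decimals. It rose with OLT (0.41 ± 0.11, adjusted p = 0.0272) and TBD (0.47 ± 0.11, adjusted p = 0.0117), while the D3T difference was 0.15 (95% interval -0.08 to 0.39). The OLT call was lost without vehicle replicate 2 or 4 or OLT replicate 1 or 4 (0.32 to 0.49 without single arrays, adjusted p up to 0.08) and in 5 of 10 other settings. Both calls ended after centring (adjusted p = 0.108 and 0.0663) and over gene means (adjusted p = 0.0598 and 0.0701). D21799_at, its other probe set, differed by -0.03, 0.43 and 0.33 and did not pass. The remaining constitutive beta genes, Psmb1 and Psmb3, had 3 probe sets with differences between -0.05 and 0.70 and no call.

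The alpha subunits form the gate of the core, and no probe set of the 6 alpha genes Psma1, Psma2, Psma4, Psma5, Psma6 and Psma7 was called. Of all tested probe sets 18.4%, 11.3% and 13% were called with D3T, OLT and TBD, so few calls would fall on these 10 probe sets. The member with the largest negative difference outside Psmb9 was the Psma2 probe set rc_AI170403_at, which read 9.32, 10.60, 9.44 and 10.09 in vehicle, 8.62, 8.62, 9.16 and 8.72 with D3T, 10.50, 8.64, 9.28 and 9.80 with OLT and 9.04, 8.39, 9.61 and 10.07 with TBD. All D3T arrays lay below all vehicle arrays, with a difference of -1.08 (95% interval -1.95 to -0.21, adjusted p = 0.0822). The other 2 Psma2 probe sets differed by -0.18 and -0.02 with D3T. Psma1, at 8.28, 8.88, 8.17 and 8.75 in vehicle, 8.01, 7.79, 8.13 and 8.12 with D3T, 9.30, 7.80, 8.57 and 9.15 with OLT and 8.44, 7.94, 8.58 and 9.25 with TBD, also had all D3T arrays below all vehicle arrays without passing (-0.51, adjusted p = 0.298), and the same held for Psma4 (-0.34, adjusted p = 0.436). With OLT the alpha differences ran from -0.31 to 0.40 and with TBD from -0.58 to 0.20.

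**Figure D2:**
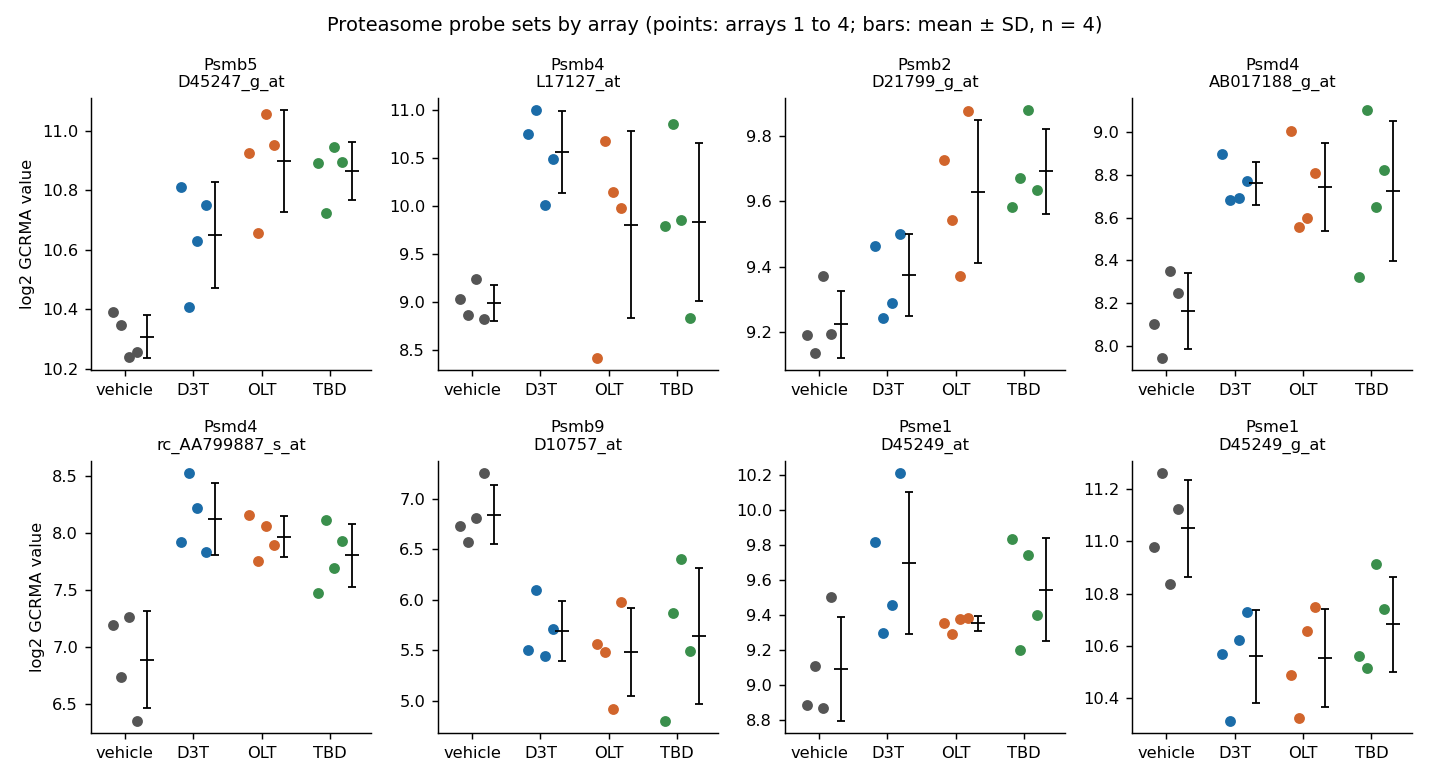
Log2 GCRMA values (y axis) of 8 proteasome probe sets on each array, by group (x axis), with the group mean ± SD (n = 4) beside the points. Psmb5 D45247_g_at and Psmd4 rc_AA799887_s_at lie above the vehicle arrays and Psmb9 D10757_at below them in all 3 compound groups, while OLT array 1 and TBD array 4 are low for Psmb4, at 8.42 and 8.84.

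Psmb9, the interferon-induced subunit that takes the place of Psmb6 in the immunoproteasome, was the one core gene with lower calls. Its probe set D10757_at read 6.73, 6.57, 6.81 and 7.25 in vehicle, 5.51, 6.10, 5.44 and 5.71 with D3T, 5.56, 5.48, 4.92 and 5.98 with OLT and 4.80, 5.87, 6.40 and 5.49 with TBD. Every compound array lay below every vehicle array. It fell with D3T (-1.15 ± 0.30, 2.22-fold lower, adjusted p = 0.014), with OLT (-1.36 ± 0.30, 2.56-fold lower, adjusted p = 0.00856) and with TBD (-1.20 ± 0.30, 2.3-fold lower, adjusted p = 0.0149). The D3T and OLT calls were kept without any single array and under the 10 other settings tried. The TBD call was lost without vehicle replicate 4 (-1.45 to -0.92 without single arrays, adjusted p up to 0.0513), after quantile normalization (-0.93, adjusted p = 0.0579), on the 8 arrays compared (adjusted p = 0.0653) and over the mean of both probe sets (-0.63, adjusted p = 0.121).

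The second Psmb9 probe set, D10757_g_at, read 7.53, 7.65, 7.17 and 8.41 in vehicle, 7.35, 7.20, 7.13 and 7.25 with D3T, 7.05, 7.11, 7.01 and 7.35 with OLT and 7.10, 7.88, 8.16 and 7.37 with TBD. The groups overlapped, with vehicle replicate 4 and TBD replicate 3 the highest arrays, and the differences were -0.46, -0.56 and -0.06, none of which passed. Psmb8, which takes the place of Psmb5 in the immunoproteasome, read 8.31, 8.27, 8.28 and 8.62 in vehicle, 8.17, 8.08, 8.10 and 8.23 with D3T, 7.85, 8.50, 7.96 and 8.69 with OLT and 7.88, 8.25, 8.32 and 8.15 with TBD. All D3T arrays lay below all vehicle arrays, by a small margin, and its differences of -0.23, -0.12 and -0.22 did not pass (adjusted p = 0.393, 0.896 and 0.519).

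Some markers of immune cells fell on the same arrays. Of 7 macrophage and Kupffer cell markers, 3 fell with each compound and 0 rose. Of all tested probe sets 12.2%, 7.89% and 9.47% were called lower with D3T, OLT and TBD. Aif1 differed by -2.01, -2.18 and -2.21 on the log2 scale, C1qb by -0.91, -0.81 and -0.73 and Clec4f by -1.02, -1.18 and -1.02. The other 4 were not called: C1qc differed by -0.04, 0.28 and -0.18, Cd14 by 0.33, 0.89 and -0.28, Csf1r by 0.11, -0.02 and -0.01 and Lyz2 by -0.43, 0.17 and 0.06. Of these, C1qc (3.71 to 4.70) and Csf1r (3.59 to 3.99) were dim on all arrays. The median over the 7 was -0.43, -0.02 and -0.28, and their summed linear level was 1948 to 2729 on vehicle arrays, 1188 to 1484 with D3T, 1305 to 1896 with OLT and 1369 to 1673 with TBD. Of 5 genes of MHC class II presenting cells, which include Cd74, 4, 3 and 2 fell with D3T, OLT and TBD and 0 rose, with summed levels of 1643 to 2725 in vehicle and 693 to 1226, 619 to 1195 and 804 to 1664 with the compounds. None of the 5 tested lymphocyte markers was called. Their summed level was 78.1 to 87.7 in vehicle and 79.5 to 95.7, 67.3 to 86.1 and 76.4 to 116 with D3T, OLT and TBD, and Cd3d, Cd4, Cd8b, Gzmb and Prf1 did not pass the filter on dim values. The tested Cd2, Cd3g and Cd8a were dim too, at 2.92 to 3.67 beside array medians of 3.27 to 3.58. Their lack of a call thus tells little about lymphocytes. The part of these cells in the Psmb9 result was not tested.

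Of 10 tested genes of antigen presentation and interferon response, 4 fell with D3T, 1 with OLT and 2 with TBD, and 0 rose, each read on its brightest probe set. Of all tested probe sets 12.2%, 7.89% and 9.47% were called lower and 6.18%, 3.38% and 3.55% higher. The median differences of the 10 genes were -0.41, -0.25 and -0.06. The antiviral enzyme gene Oas1a differed by -1.05 (adjusted p = 0.00177) with D3T and by -0.81 (adjusted p = 0.0119) with TBD, and the transcription factor genes Irf1 and Irf7 by -0.97 (adjusted p = 0.0135) and -1.20 (adjusted p = 0.0452) with D3T. On the D3T arrays Oas1a (3.94 to 4.03) and Irf7 (3.59 to 3.95) lay not far above the array medians of 3.27 to 3.58. Cd74, the invariant chain of MHC class II, fell with all 3 compounds, with differences of -1.05, -1.12 and -0.95 and adjusted p of 0.0239, 0.0239 and 0.0496. Tap1, the neighbour that shares the promoter region of Psmb9, differed by -0.58 (95% interval -1.18 to 0.02), -0.30 (-0.90 to 0.30) and -0.07 (-0.67 to 0.53), without a call. B2m, the MHC class I light chain, differed by -0.25, -0.17 and -0.06, also without a call. Stat2 went the other way with D3T, by 0.61 (95% interval 0.10 to 1.12, limma adjusted p = 0.091). With OLT and TBD it differed by -0.35 and -0.22, and it was not called. Calr differed by 0.03, 0.02 and -0.0041 on its brightest probe set. On another, D78308_at, all D3T arrays (11.39 to 11.62) lay above all vehicle arrays (10.64 to 11.11).

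In the cap, Psmd4, a receptor that binds ubiquitin chains, was called with all 3 compounds. Its probe set rc_AA799887_s_at read 7.19, 6.74, 7.26 and 6.35 in vehicle, 7.92, 8.53, 8.22 and 7.84 with D3T, 8.16, 7.76, 8.07 and 7.90 with OLT and 7.48, 8.11, 7.69 and 7.93 with TBD. Every compound array lay above every vehicle array. The differences were 1.24 ± 0.21 (2.36-fold, adjusted p = 0.000965) with D3T, 1.08 ± 0.21 (2.12-fold, adjusted p = 0.00393) with OLT and 0.92 ± 0.21 (1.89-fold, adjusted p = 0.00949) with TBD. A second probe set, AB017188_g_at, read 8.10, 7.95, 8.35 and 8.25 in vehicle, 8.90, 8.68, 8.69 and 8.77 with D3T, 9.003, 8.56, 8.60 and 8.81 with OLT and 8.32, 9.10, 8.65 and 8.82 with TBD. Only TBD replicate 1 reached into the vehicle range, and the probe set rose by 0.60 ± 0.15, 0.58 ± 0.15 and 0.56 ± 0.15 (adjusted p = 0.0123, 0.0211 and 0.022).

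The larger rise of Psmd4, on rc_AA799887_s_at, was kept without any single array, and under the other settings it was lost once, with TBD in a fit on the 8 arrays compared (adjusted p = 0.0504). On AB017188_g_at the OLT call ended with the removal of vehicle replicate 2 or OLT replicate 1 or 4 (0.49 to 0.64 without single arrays, adjusted p up to 0.071) and the TBD call with that of vehicle replicate 2 or TBD replicate 2 (0.44 to 0.70 without single arrays, adjusted p up to 0.074). Centring ended both (adjusted p = 0.0542 and 0.0598), and the OLT call was not kept when OLT replicate 1 and TBD replicate 4 were both left out (0.49, adjusted p = 0.0602) nor the TBD call on the 8 arrays compared (adjusted p = 0.096). The third probe set, AB017188_at, differed by 0.22, 0.15 and 0.11 and was not called. Over the mean of its probe sets Psmd4 kept its calls, with differences of 0.69, 0.60 and 0.53.

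Psmd1, a large scaffold subunit of the cap base, was called with OLT on its probe set U57050_g_at, which read 8.91, 9.01, 9.09 and 9.08 in vehicle, 9.05, 9.11, 9.20 and 8.99 with D3T, 9.99, 9.26, 9.43 and 9.39 with OLT and 9.16, 9.35, 9.73 and 9.45 with TBD. All OLT and all TBD arrays lay above all vehicle arrays, and the D3T arrays did not separate from them. The OLT difference was 0.50 ± 0.14 (adjusted p = 0.039), against 0.40 with TBD (95% interval 0.09 to 0.71) and 0.07 with D3T (-0.24 to 0.38). Its other tested probe sets were not called and did not share 1 sign, with differences of 0.21, 0.50 and 0.47 on AJ006340_s_at and -0.61, 0.03 and -0.03 on rc_AA859869_s_at. Psmd11, a lid subunit, was called with OLT and not with the other compounds, and read 9.01, 9.65, 9.40 and 9.12 in vehicle, 9.72, 9.64, 9.57 and 9.77 with D3T, 10.10, 9.38, 9.75 and 10.05 with OLT and 9.70, 9.62, 9.68 and 9.64 with TBD. OLT replicate 2 lay within the vehicle range. Its difference was 0.52 ± 0.15 (adjusted p = 0.0391) with OLT, 0.38 (0.05 to 0.71) with D3T and 0.36 (0.04 to 0.69) with TBD.

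Both of these OLT calls were fragile. That of Psmd1 was lost without vehicle replicate 1, 2, 3 or 4 or OLT replicate 1, 3 or 4 (0.34 to 0.58 without single arrays, adjusted p up to 0.088). That of Psmd11 was lost without vehicle replicate 1, 3 or 4 or OLT replicate 1, 3 or 4 (0.43 to 0.67 without single arrays, adjusted p up to 0.115). Of 10 other settings, 7 ended the first and 6 the second, centring among them (adjusted p = 0.124 and 0.15).

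The remaining cap members were not called. The ATPase genes Psmc1 to Psmc5, whose motor unfolds substrates, had differences between -0.43 and 0.37 over 6 probe sets and 3 compounds, and those of Psmc1 were 0.33, 0.35 and 0.37. Psmc4 was set by 1 array, since vehicle replicate 2 read 10.20 and the other 15 arrays 8.04 to 9.16. Psmd2, a scaffold of the cap base, likewise read 6.58 on D3T replicate 2 and 7.98 to 9.13 on the other arrays. Psmd13, a lid subunit, differed by -0.35, -0.26 and -0.24. Psmd10, an assembly chaperone of the cap also known as gankyrin, read 3.85 to 4.21 on all arrays, not far above the array medians.

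Psme1 and Psme2 encode the PA28 alpha and beta subunits. The 2 tested probe sets of Psme1 come from the same source sequence and were called in opposite directions with D3T. D45249_at read 8.88, 9.11, 8.87 and 9.50 in vehicle, 9.82, 9.30, 9.46 and 10.21 with D3T, 9.36, 9.29, 9.38 and 9.38 with OLT and 9.84, 9.20, 9.74 and 9.40 with TBD. It rose with D3T (0.61 ± 0.20, adjusted p = 0.0442), where D3T replicate 4 was the highest array and replicates 2 and 3 lay within the vehicle range. D45249_g_at read 10.98, 11.26, 10.83 and 11.12 in vehicle, 10.57, 10.31, 10.62 and 10.73 with D3T, 10.49, 10.32, 10.66 and 10.75 with OLT and 10.56, 10.52, 10.91 and 10.74 with TBD. All D3T and all OLT arrays lay below all vehicle arrays, and it fell with D3T (-0.49 ± 0.13, adjusted p = 0.0157) and OLT (-0.49 ± 0.13, adjusted p = 0.0215), with a TBD difference of -0.37 (95% interval -0.64 to -0.09) that did not pass.

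Over the mean of both probe sets Psme1 differed by 0.06 (adjusted p = 0.825) with D3T and by -0.12 (adjusted p = 0.841) with OLT, so no direction is given for this gene. The D3T rise of D45249_at was lost without vehicle replicate 1, 2 or 3 or D3T replicate 1 or 4 (0.43 to 0.74 without single arrays, adjusted p up to 0.138) and under 7 of 10 other settings. The fall of D45249_g_at was lost with D3T without vehicle replicate 2 or D3T replicate 2 (-0.56 to -0.41 without single arrays, adjusted p up to 0.0553), and with OLT without vehicle replicate 2 or 4 or OLT replicate 2 (-0.57 to -0.42 without single arrays, adjusted p up to 0.0722) and under 4 of 10 other settings. Psme2 read 8.13, 8.16, 8.02 and 8.62 in vehicle, 8.21, 8.19, 7.51 and 8.09 with D3T, 8.34, 7.83, 8.41 and 8.44 with OLT and 7.64, 8.50, 8.62 and 8.22 with TBD. The groups overlapped and the differences were -0.23, 0.02 and 0.02; their 95% intervals were -0.71 to 0.24, -0.45 to 0.50 and -0.46 to 0.49. Psme4, the PA200 activator, differed by -0.46, -0.26 and -0.36 (95% interval with D3T -0.85 to -0.07, adjusted p = 0.0957), with vehicle replicate 2 the highest array at 5.77.

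Disagreement between probe sets of 1 gene was common among the members. Of 12 genes with several tested probe sets, all had differences of 1 sign for 9 genes with D3T, 9 with OLT and 7 with TBD. Of the 5, 6 and 4 of these genes with a call, every probe set was called for 1, 0 and 0, and the 1 was Psme1, with opposite signs. Single-gene results above therefore hold for the probe set named.

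**Figure D3:**
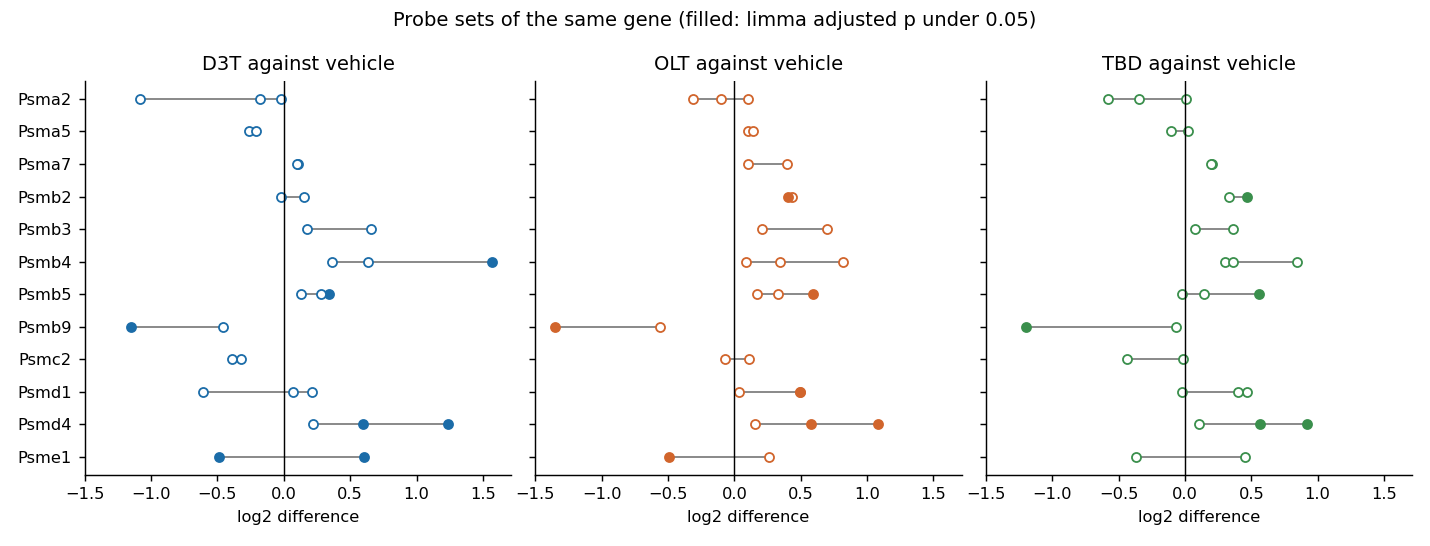
Log2 difference against vehicle (x axis) of each tested probe set of the 12 genes with several (y axis), by compound (panels); lines join the probe sets of a gene and filled points passed a limma adjusted p under 0.05. Psmd4 is called on 2 of its 3 probe sets in each panel, and the Psme1 points lie on opposite sides of 0.

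Across arrays, the mean of a class was taken as the mean deviation of its probe sets from their own 16-array means. Core subunits without those of the immunoproteasome (21 probe sets) ranged from -0.30 to 0.09 on vehicle arrays, from -0.09 to 0.05 with D3T, from -0.22 to 0.39 with OLT and from -0.24 to 0.23 with TBD. The cap ranged from -0.23 to 0.02, -0.14 to -0.01, -0.16 to 0.48 and -0.24 to 0.22. The D3T arrays were the closest together and the OLT arrays the furthest apart, and every compound group overlapped the vehicle group in both classes. The 3 immunoproteasome probe sets ranged from 0.23 to 0.91 on vehicle arrays, from -0.30 to -0.06 with D3T, from -0.56 to 0.15 with OLT and from -0.59 to 0.44 with TBD, so the D3T and OLT arrays were all below the vehicle arrays and TBD replicate 3 was not. The largest of their differences were those of Psmb9 D10757_at (-1.15, -1.36 and -1.20), while those of Psmb8 were -0.23, -0.12 and -0.22.

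OLT replicates 1 and 4, with array medians of 3.30 and 3.28, had the highest OLT means, 0.29 and 0.32 over all core probe sets and 0.48 and 0.25 in the cap, and OLT replicate 2, with a median of 3.54, had core and cap means of -0.21 and -0.16. Vehicle replicate 1, with the highest median of 3.58, had means of -0.22 and -0.23. Vehicle replicate 2, with the lowest median of 3.27, had means of -0.02 and 0.02. The part of the array median in these means was not tested. With the 40th percentile of each array as a covariate, chosen after seeing the data, 6 members were called higher and 3 lower with D3T, 7 and 2 with OLT and 5 and 2 with TBD. Those were 13.6% and 6.82%, 15.9% and 4.55%, and 11.4% and 4.55% of members. Of all probe sets 18.1% were higher and 14.6% lower with D3T, 5.64% and 11.1% with OLT, and 5.15% and 11.8% with TBD. The share of members higher with D3T was thus below that of all probe sets.

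**Figure D4:**
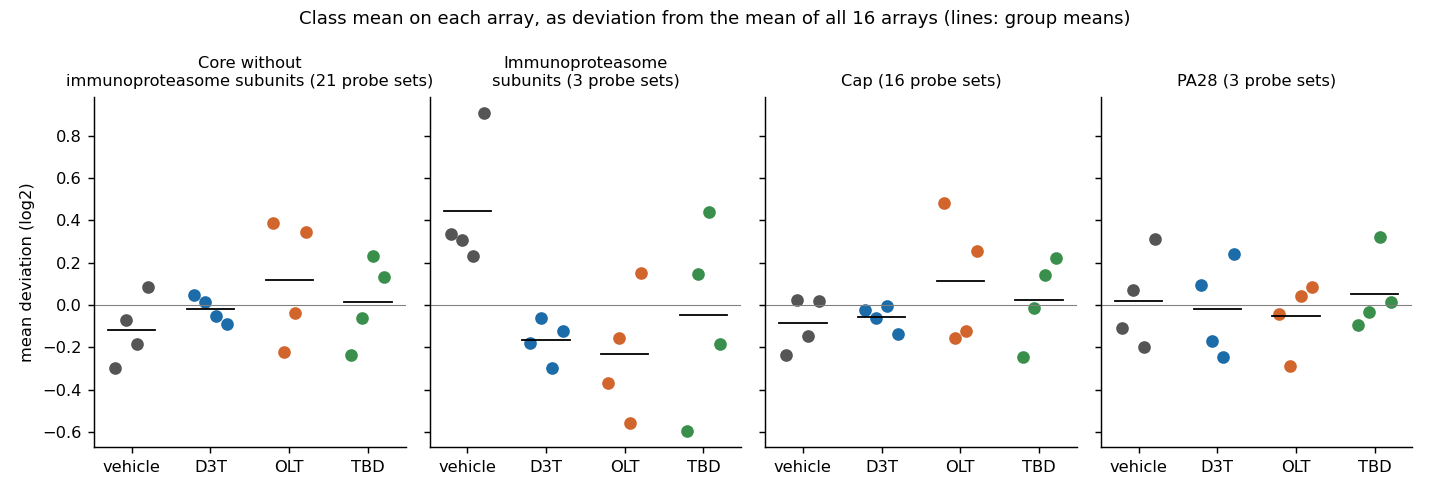
Mean deviation of each class from its 16-array mean (y axis, log2) on each array, by group (x axis), for the core without immunoproteasome subunits (21 probe sets), the immunoproteasome subunits (3), the cap (16) and PA28 (3); lines are group means. OLT arrays span -0.22 to 0.39 in the first panel, and the vehicle arrays of the second, from 0.23 to 0.91, lie above all its D3T and OLT arrays.

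The compounds, given at the same dose and times, were compared with each other in 3 pairs. No member was called in any pair by limma, against 1.07% of all probe sets between D3T and OLT, 0.658% between D3T and TBD and 0.0564% between TBD and OLT. By direction the shares of all probe sets were 0.395% higher and 0.676% lower for D3T against OLT, 0.188% and 0.47% for D3T against TBD, and 0% and 0.0564% for TBD against OLT. Groups did not overlap on 2, 1 and 0 of 44 members (4.55%, 2.27% and 0%) and on 7.53%, 9.21% and 1.05% of all probe sets. At an unadjusted p under 0.05 the counts were 7, 2 and 0 of 44, and the share of all probe sets at that threshold was not computed. By adjusted p 0 members were called under each alternative tried. The lowest adjusted p between D3T and OLT was that of Psmd1 U57050_g_at (difference -0.43, 95% interval -0.74 to -0.12, adjusted p = 0.224, groups not overlapping), and between D3T and TBD that of Psmb2 D21799_g_at (difference -0.32, 95% interval -0.55 to -0.08, adjusted p = 0.307, groups not overlapping).

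For Psmb5 D45247_g_at the D3T minus OLT difference with its 95% interval was -0.25 (-0.47 to -0.03), D3T minus TBD -0.21 (-0.43 to 0.01) and TBD minus OLT -0.03 (-0.25 to 0.18). For Psmd4 rc_AA799887_s_at the 3 were 0.16 (-0.29 to 0.60), 0.32 (-0.12 to 0.77) and -0.17 (-0.61 to 0.28), and for Psmb9 D10757_at 0.20 (-0.43 to 0.84), 0.05 (-0.58 to 0.68) and 0.16 (-0.48 to 0.79). For Psmb4 L17127_at D3T minus OLT was 0.75 (-0.19 to 1.70) and D3T minus TBD 0.73 (-0.22 to 1.67). The bare ring and the substituted rings were thus not told apart on any single member at the adjusted threshold. Members lay below 0 on 30, 28 and 32 of 44 probe sets for D3T minus OLT, D3T minus TBD and TBD minus OLT. Of all tested probe sets 67.3%, 67.9% and 58.4% lay above 0. Core alpha probe sets lay below 0 on 10, 9 and 9 of 10, with medians of -0.30, -0.15 and -0.14. These shifts were not tested.

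Of 39 listed partners of the proteasome in the ubiquitin pathway, 11 were named alone by a probe set and 9 of these were tested. None was called with D3T or OLT, and 1 was lower with TBD, and their median differences were -0.25, 0.05 and 0.01. Of all tested probe sets 18.4%, 11.3% and 13% were called, so few calls would fall on 9 genes. The 1 called was Sem1, a small lid component of the cap whose symbol falls outside the rule, with a difference of -0.49 (adjusted p = 0.0201) with TBD, and -0.33 and -0.41 with D3T and OLT. Each gene was read on its brightest probe set. Txnl1 differed there by -0.67 with D3T, without a call. On its other probe set all D3T arrays (5.72 to 6.06) lay above all vehicle arrays (4.96 to 5.43). The core assembly factor Pomp differed by 0.13, 0.12 and 0.24 and the ubiquitin segregase Vcp by 0.23, 0.08 and 0.09. Nfe2l2, which encodes NRF2, differed by -0.74, 0.31 and 0.01 without a call, and Nfe2l1, which encodes NRF1, has no value here. For scale, the NRF2 target Nqo1 differed by 3.62, 2.16 and 2.58 on the same arrays (adjusted p = 0.00226, 0.0581 and 0.0228), of which the D3T and TBD differences passed. Its rise was uneven. TBD replicate 1 read 4.53, within the vehicle range of 4.02 to 4.77, and the other TBD arrays 6.90 to 8.79. OLT replicate 2 read 5.19 and the other OLT arrays 6.36 to 7.53.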

How the data were processed

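Liver RNA of 16 rats was measured on 1-colour Affymetrix arrays, 4 per group. The deposited values are log2 signals that the authors computed with GCRMA, as per the submitters' processing notes, which name no version. GCRMA compresses values near background, so small differences of dim probe sets tell little. The deposited log2 values were used as they stand. Batches of scanning or labelling were not analysed here, and the number of arrays limits the precision.

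Probe sets were named by the platform's gene symbols, and all 49 members matched a gene of the same symbol in a GRCr8 reference table by Entrez ID. A limma (3.58.1, under R 4.3.3) model with 1 mean per group was fitted to 5323 probe sets over all 16 arrays (residual df 12), without covariates, two-sided, and the fit was tested on simulated data. In the other gene lists, where a gene had several tested probe sets, the brightest on average stood for it. The rule for genes named with all values took each member called in any comparison, the catalytic subunits and the PA28 genes. Psma1, Psma2, Psma4, Psmc4 and Psmd2 were chosen for description once their values were known. From the other lists it took up to 4 called genes, and Nfe2l1, Nfe2l2, Nqo1 and Pomp. Tap1, B2m and Vcp were added for their known roles, and Stat2, Calr and Txnl1 once their values were known. The members and lists were chosen with earlier results of these data known. Alternatives were other filters, scalings, variance priors, subsets of arrays, a replicate block and gene means. Figures were drawn in Python 3.11.15 with matplotlib 3.10.9 and pandas 2.3.3.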

Additional observations from a re-analysis of the deposited data

Results flagged for a closer look

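In 9 of 176 groups of 4 arrays (44 member probe sets in 4 groups), 1 array lay far from the other 3 by Dixon's test; chance alone gives about 1 in 20. The largest in size was Psmc4 (D50695_at) on vehicle replicate 2, at 10.20 against 8.42 for the next array. Among cap members, Psmd1 (AJ006340_s_at) read 7.60 on OLT replicate 1 against 6.99 for the next array, Psmd4 (AB017188_at) 7.56 on TBD replicate 4 against 7.30, and Psmd10 (AB022014_at) 3.90 on TBD replicate 3 against 4.04. Among core members, Psmb2 (D21799_at) read 9.34 on TBD replicate 4 against 8.91, Psmb4 (rc_AI172162_at) 9.79 on D3T replicate 4 against 10.03, and Psmb8 (D10729_s_at) 8.62 on vehicle replicate 4 against 8.31. Psme2 (D45250_s_at) read 7.51 on D3T replicate 3 against 8.09 and 7.83 on OLT replicate 2 against 8.34. The 9 flags fell on 8 different arrays.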

How the results depend on the processing

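The number of members called moved with scaling, with the mean over probe sets of a gene and with the arrays used. With D3T it was 7, and 16 after quantile normalization and 3 genes over gene means, with 4 to 6 when single arrays were left out. The members' shares under these 2 settings were 36.4% and 11.1%, against 23.9% of all probe sets and 17% of all genes. With OLT the number was 8, and 13 after quantile normalization, 3 after centring, 5 with an intensity trend, 4 on the 8 arrays compared, 4 without OLT replicate 1 and TBD replicate 4 and 3 genes over gene means, with 4 to 8 without single arrays. In the order of these settings the members' shares were 29.5%, 6.82%, 11.4%, 9.09%, 9.09% and 11.1%. The shares of all probe sets (genes in the last) were 12%, 6.78%, 10.8%, 8.36%, 13.2% and 11.4%. With TBD the number was 5, and 11 after quantile normalization, 3 after centring, 2 on the 8 arrays compared, 8 without OLT replicate 1 and TBD replicate 4 and 1 gene over gene means, with 4 to 6 without single arrays. The members' shares in that order were 25%, 6.82%, 4.55%, 18.2% and 3.7%. Those of all probe sets (genes in the last) were 13.1%, 8%, 6.78%, 16.2% and 12.9%. Between compounds the number was 0 throughout. With the replicate number as a block the counts were 7, 6 and 5. They were 15.9%, 13.6% and 11.4% of members, against 16.7%, 9.88% and 11.8% of all probe sets. Arrays with the same number did not deviate together (median correlation -0.01 over 24 pairs), and 5 of 16 correlated best with their own number. The replicate numbers are not taken to pair animals. Quantile normalization moved the D3T medians to 0.23 in the core, 0.17 in the cap and -0.00030 in PA28, and the TBD medians to 0.23 in the cap and 0.25 in PA28; over gene means the D3T cap median was -0.11. Without single arrays the core medians ran from -0.07 to 0.13, 0.03 to 0.30 and -0.01 to 0.15 with D3T, OLT and TBD, those of the cap from 0.00 to 0.08, -0.02 to 0.21 and -0.06 to 0.11, and those of PA28 from -0.30 to -0.07, -0.05 to 0.16 and -0.11 to 0.22. Of 20 single calls, 1 changed direction, Psme1 D45249_g_at with D3T, at 0.058 over gene means. The cause of these shifts was not tested.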
